A study of Mus musculus with 3 samples.

Results

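TRAJ31, TRAJ30, TRAJ28 and TRAJ27 are joining (J) segments of the mouse T cell receptor (TCR) α locus that lie close together in the middle of its J cluster. Cells were taken as members when they carried exactly 1 productive α chain and that chain used 1 of these 4 segments. By this rule 682 of the 6982 cells with 1 productive α chain were members, among 12208 cells in all. TRAJ31 was used by 264 of them, TRAJ30 by 216, TRAJ27 by 170 and TRAJ28 by 32. Of the 43 J segments seen in these cells, TRAJ31 ranked 9 by number of cells, TRAJ30 ranked 11, TRAJ27 ranked 18 and TRAJ28 ranked 41.

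The cells were thymocytes pooled from 8 female mice aged 7 to 12 weeks. Every mouse carried the Tcliβ transgene, which supplies a fixed TCR β chain, was TCRα+/- so that 1 α allele could give a chain, and had the Foxp3-GFP reporter. Listed in the order used below, the sorted populations were CD4+CD8+ cells (DP), CD4+ cells negative for FOXP3, CD25 and CD73 (CD4 SP), CD25+ regulatory T cell progenitors (CD25+ TRP), Foxp3lo progenitors (Foxp3lo TRP), CD73- regulatory T cells (CD73- Treg) and their CD73+ counterparts (CD73+ Treg). This order is one of listing, and CD25+ TRP and Foxp3lo TRP are not taken as successive stages. CD8 was depleted magnetically before the sort, except for DP, and all populations were sorted for Vα2 at the cell surface, which TRAV14 genes encode, so the values describe mainly TRAV14 chains and not α chains at large. Each population was 1 sorted sample of the same pool, told apart by its hashtag. There was therefore no replicate and no test, the mouse of origin of a cell is not given, and each interval below is an exact Clopper-Pearson 95% interval that covers counting error only. Shares are called apart where these intervals do not overlap.

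An α chain gene is assembled in the thymus when a variable (V) segment is cut and joined to a J segment, with loss and addition of bases at the ends. The first joins tend to use J segments at the V side of the cluster, and later rounds on the same allele replace them with joins farther toward the constant region, so the J segment in use reflects how far a cell's rearrangement has gone. The joint is the core of CDR3, the loop that contacts the presented peptide. The end of the J segment supplies the last residues of CDR3, here given with the phenylalanine or tryptophan that closes it.

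The germline J segments are shown because every CDR3 below ends in one of them. All were read from GENCODE M21 transcripts (genome build GRCm38), where each is annotated as a J gene segment on the plus strand of chromosome 14. Capitals mark the last codon of CDR3. TRAJ29, which lies between TRAJ30 and TRAJ28, is given with them.
TRAJ31: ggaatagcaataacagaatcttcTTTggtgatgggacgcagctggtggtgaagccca
TRAJ30: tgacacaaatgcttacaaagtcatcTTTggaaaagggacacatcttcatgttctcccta
TRAJ29: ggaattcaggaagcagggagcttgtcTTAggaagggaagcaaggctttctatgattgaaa
TRAJ28: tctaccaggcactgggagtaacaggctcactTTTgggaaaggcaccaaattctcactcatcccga
TRAJ27: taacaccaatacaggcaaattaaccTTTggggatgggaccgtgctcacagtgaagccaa

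TRAJ31 occupies chr14:54187895-54187951, TRAJ30 chr14:54189866-54189924, TRAJ28 chr14:54191661-54191725 and TRAJ27 chr14:54192303-54192361. The 4 segments span 4467 bp, and the 60 annotated TRAJ genes lie between positions 54155005 and 54218842. From the end of TRAJ31 to the start of the constant gene TRAC are 32569 bases, and from the end of TRAJ27 are 28159. In all 4 segments the last CDR3 codon is TTT, phenylalanine. In TRAJ29 (chr14:54190946-54191005) it is TTA, leucine. TRAJ29 was listed for 0 of 21598 contigs of any kind and for 0 of 15629 productive α contigs. That allows a share of up to 0.0192% of the productive ones by a limit of 3 contigs, and up to 0.0236% by the exact interval. Both limits hold only if the reference used for the contig calls contains TRAJ29, which was not checked. The germline CDR3 part is 26 bases long in TRAJ31, 28 in TRAJ30 and TRAJ27, and 34 in TRAJ28.

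Cells with 1 productive α chain were 41.9% of the DP, 75.9% of the CD4 SP, 71.2% of the CD25+ TRP, 57.7% of the Foxp3lo TRP, 49.1% of the CD73- Treg and 44% of the CD73+ Treg population. The median number of UMIs (unique molecular identifiers, which mark single RNA molecules) behind an α chain ranged from 14 to 22 over the populations, and the median number of gene expression UMIs per cell from 1457 to 3248. Over all populations the median α UMIs were 17 in members and 18 in other cells. A further 330 cells carried 2 productive α contigs although the mice were TCRα+/-, and they were left out. A productive β contig was read in 88 members and used TRBV19 in 84.1% of them (74.8 to 91), against 92% (90 to 93.8) of 855 other cells.

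Together the 4 segments had a higher share in DP cells than in CD4 SP cells, and the values of all other populations lay between these. The DP interval overlapped those of CD25+ TRP, Foxp3lo TRP and CD73- Treg. Their combined share was 12.3% among DP (156 of 1266 cells, interval 10.6 to 14.3), 8.33% among CD4 SP (154 of 1849, 7.11 to 9.68), 10% among CD25+ TRP (179 of 1783, 8.68 to 11.5), 10.1% among Foxp3lo TRP (81 of 804, 8.08 to 12.4), 9.87% among CD73- Treg (22 of 223, 6.29 to 14.6) and 8.51% among CD73+ Treg (90 of 1057, 6.9 to 10.4). Over all populations it was 9.77% (9.08 to 10.5).

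The question at the first step is which chains made at the DP stage are found after selection to CD4 SP. The combined share was lower in CD4 SP than in DP, with a log2 ratio of -0.57, and these intervals did not overlap. When each different CDR3 of a population was counted once, the shares were 10% in CD4 SP and 11.9% in DP, the log2 ratio was -0.25 and the intervals overlapped. Counted so, the highest share was that of CD25+ TRP, 12.2%. Between the same populations 19 of 43 single J segments (44.2%) had intervals apart, 8 higher and 11 lower in CD4 SP, and none of the 4 members was among them. Intervals that overlap do not show equal use.

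TRAJ31 was the segment nearest to a difference. Its share was 3.14% in CD4 SP (2.39 to 4.04), against 5.13% in DP (3.98 to 6.5), a log2 ratio of -0.71 with intervals that just overlapped. Each of 3 other settings moved them apart: counting every productive α contig gave a log2 ratio of -0.74, requiring 3 UMIs per chain also gave -0.74, and leaving out the most frequent CDR3 of the 4 segments gave -0.94. That CDR3 is a TRAJ31 one with 11 cells in CD4 SP and 3 in DP, so its removal lowers the CD4 SP share by construction. In the other 5 settings the intervals overlapped, with log2 ratios of -0.48 for each CDR3 counted once, -0.58 for each chain counted once, -0.72 for TRAV14 chains only, -0.64 without the 5% of cells with the most UMIs and -0.71 without cluster 9. TRAJ27 was at 2.33% in CD4 SP (1.69 to 3.12), against 3.63% in DP (2.67 to 4.82), with a log2 ratio of -0.64. For TRAJ30 the share was 2.43% in CD4 SP (1.78 to 3.24), against 3% in DP (2.13 to 4.1). TRAJ28 was rare in both, with 8 cells in CD4 SP (0.433%) and 7 in DP (0.553%).

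In the comparisons other than CD4 SP against DP, no member had intervals apart. TRAJ30 had its lowest share among CD4 SP and was at 3.31% among CD25+ TRP, 3.48% among Foxp3lo TRP, 3.59% among CD73- Treg and 3.6% among CD73+ Treg, each inside the intervals of the other three. TRAJ27 had its lowest share among CD73+ Treg, 1.7% (1.01 to 2.68), after 2.41% among CD25+ TRP, 1.99% among Foxp3lo TRP and 1.79% among CD73- Treg. TRAJ31 was at 3.93% among CD25+ TRP, 3.98% among Foxp3lo TRP, 3.59% among CD73- Treg and 2.93% (2 to 4.14) among CD73+ Treg. The background over all J segments was low in these comparisons. Intervals were apart for 9.3% of segments when CD25+ TRP was set against CD4 SP, and for 7.14% with Foxp3lo TRP against CD4 SP. They were apart for 2.33% with Foxp3lo TRP against CD25+ TRP and for 2.33% with CD73- Treg against CD25+ TRP. The remaining comparisons gave 0% for CD73- Treg against Foxp3lo TRP and 4.76% for CD73+ Treg against CD73- Treg. A count of 0 among 4 members is near each of these.

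**Figure D1:**
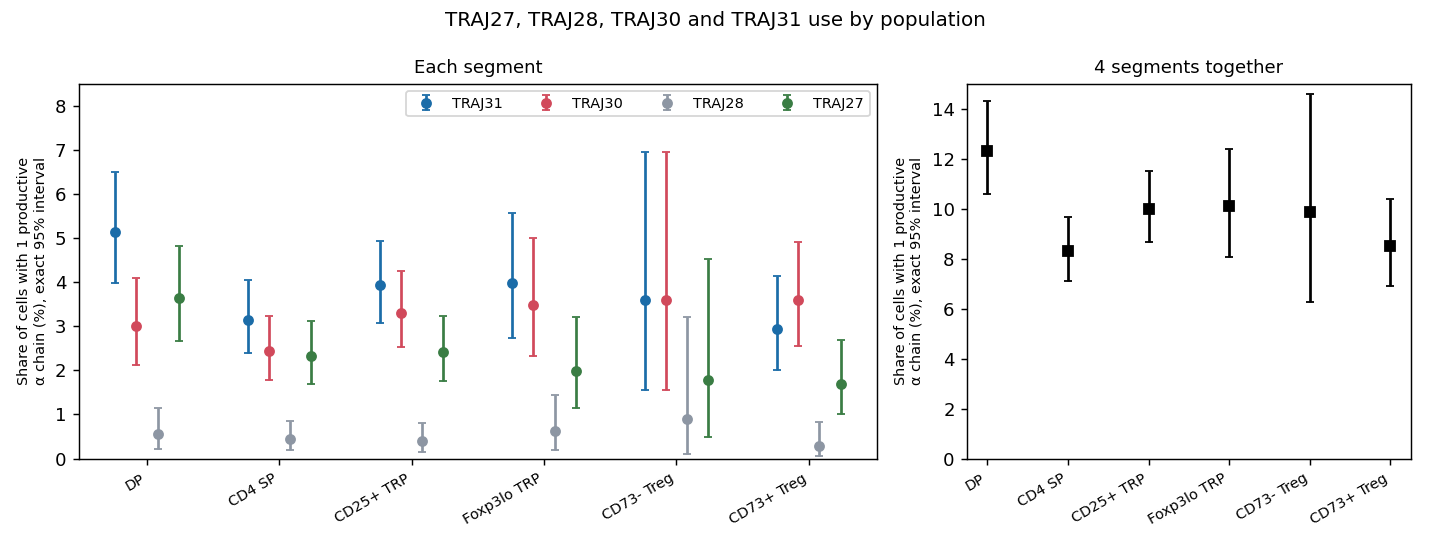
Share of cells with 1 productive α chain that used each segment (left) and any of the 4 (right), in percent, for the 6 populations in the order listed above. Points are shares and bars exact 95% intervals; the combined share was 12.3% in DP and between 8.33% and 10.1% in the other populations.

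For each member, the J segments with the most similar profile were sought among 33 others with at least 50 cells, the members themselves left out. Likeness was the root-mean-square difference of centred log2 shares over the 6 populations. Members were not compared with each other, so another member may lie nearer than the segments named. TRAJ27 was closest to TRAJ37 (0.15, where the median over segments was 0.66), then to TRAJ6 and TRAJ40. TRAJ31 was also closest to TRAJ37 (0.22, median 0.61), then to TRAJ6 and TRAJ11. TRAJ30 was closest to TRAJ40 (0.30, median 0.60), then to TRAJ22 and TRAJ33. For TRAJ28, which had few cells, the order was TRAJ4, TRAJ18 and TRAJ33. These values rest on 6 populations of 1 pool and describe these samples.

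Within each population the cells were also divided by the authors' expression clusters, which are numbered and carry no cell type name here. Population clusters with at least 50 single-α cells numbered 28 and held 625 of the 682 members. In none of 62 pairs of clusters within a population were the intervals apart, for the combined share or for any of the 4 segments. Other J segments were not compared in this way, so the count has no background, and overlap does not show equal use. The spread of values was wide where cells were few. DP cluster 8 had a combined share of 18.2% (39 of 214 cells, 13.3 to 24.1), against 11.2% in DP cluster 4 and 11.7% in DP cluster 6. Its median was 1146 gene expression UMIs per cell, against 1585 and 1616.5. TRAJ27 alone was at 7.01% in DP cluster 8 (3.98 to 11.3), 3.72% in cluster 4 and 2.93% in cluster 6. In CD73- Treg the share was 18.5% in cluster 0 (10 of 54 cells) and 4.65% in cluster 3 (4 of 86 cells).

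**Figure D2:**
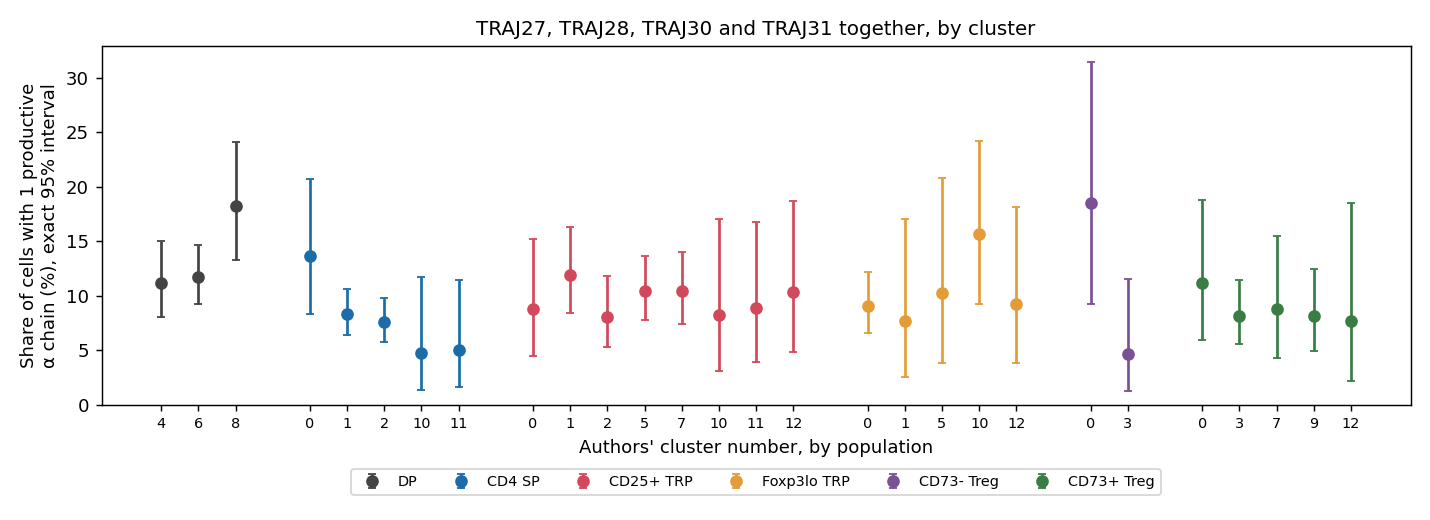
Combined share of the 4 segments in percent of cells with 1 productive α chain, by the authors' cluster number within each population (colours), for clusters with at least 50 such cells. Bars are exact 95% intervals; shares ran as high as 18.5% in CD73- Treg cluster 0 and 18.2% in DP cluster 8, and all pairs within a population overlapped.

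The members carried 360 different CDR3 amino acid sequences, 120 with TRAJ31, 106 with TRAJ30, 107 with TRAJ27 and 27 with TRAJ28, made by 527 different chains (a chain being a V copy, a J segment and a CDR3 nucleotide sequence). Of these CDR3, 257 were found in 1 cell and 84 in 2 populations or more, counts that were not made for the other J segments. Median CDR3 length was 12 residues with TRAJ31, 13 with TRAJ30 and TRAJ27, and 15 with TRAJ28, the order of their germline CDR3 parts. At 150 cells each, TRAJ27 was expected to give 97.3 different CDR3, TRAJ30 82.4 and TRAJ31 81.2, which ranked 3, 5 and 8 of 18 segments with that many cells. The extremes among those segments were TRAJ21 at 114 and TRAJ7 at 35.6.

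The number of different CDR3 at equal cells was highest in DP, for the members and for the other J segments together. These are expected values over all draws, with no error attached. Drawn down to 81 cells, the members were expected to hold 72.8 different CDR3 among DP, 57.3 among CD4 SP, 65.9 among CD25+ TRP, 55 among Foxp3lo TRP and 63.9 among CD73+ Treg. The other segments, at 81 cells, were expected to hold 79.7 among DP, 68.8 among CD4 SP, 72.5 among CD25+ TRP, 69.4 among Foxp3lo TRP, 73.5 among CD73- Treg and 65.6 among CD73+ Treg. CD73- Treg, with 22 members, held 18. At the same 22 cells, the numbers were 21.3 among DP, 19.3 among CD4 SP, 20.7 among CD25+ TRP, 19.1 among Foxp3lo TRP and 19.9 among CD73+ Treg. Each population shared CDR3 with the others. Of the 55 CDR3 of Foxp3lo TRP, 22 were also in CD25+ TRP, which is 40% of the Foxp3lo TRP list and 17.7% of the CD25+ TRP list. Of the 70 CDR3 of CD73+ Treg, 17 were in CD25+ TRP (24.3% and 13.7%), and 9 were in CD4 SP (12.9% and 9.57%). Sharing depends on the length of each list and was not counted for the other J segments, so these values have no background.

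Frequent CDR3, carried by at least 5 cells, numbered 23 and held 227 members, 33.3% of all. TRAJ31 had 9, TRAJ30 had 9, TRAJ27 had 5 and TRAJ28 had none. Of these 23, 18 were encoded by 2 or more different nucleotide sequences, 11 were found in 4 populations or more, 12 were not seen in DP and 11 not in either Treg population. Of all 219 CDR3 with at least 5 cells in the series, 198 (90.4%) had 2 or more nucleotide sequences, 108 (49.3%) were found in 4 populations or more, 113 (51.6%) were not seen in DP and 85 (38.8%) not in either Treg population. The members' shares were 78.3%, 47.8%, 52.2% and 47.8%. Of the V copies, 7 of the 23 (30.4%) were found with 1 only, against 48 (21.9%) of all 219. Each of the members' 7 was encoded by at least 2 nucleotide sequences, a count not made for the series.

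Leading chains are shown to compare their joints. All 9 annotated TRAV14 copies end their CDR3 part in the same 13 bases, tgtgcagcaagtg, so a joint can be read without knowing the copy. Each line gives the leading nucleotide sequence of a CDR3, named by its residues or numbered by frequency within the segment, and 4 sequences are given for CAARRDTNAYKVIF. Capitals mark the part that matches the germline J segment.
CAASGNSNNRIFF, TRAJ31: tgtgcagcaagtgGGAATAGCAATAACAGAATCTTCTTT
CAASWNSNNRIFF, TRAJ31: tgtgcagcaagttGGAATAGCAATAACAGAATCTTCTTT
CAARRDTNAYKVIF, TRAJ30, nucleotide sequence 1: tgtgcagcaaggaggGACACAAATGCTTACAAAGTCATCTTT
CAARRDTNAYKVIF, TRAJ30, nucleotide sequence 2: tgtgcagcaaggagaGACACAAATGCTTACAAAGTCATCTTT
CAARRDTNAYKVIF, TRAJ30, nucleotide sequence 3: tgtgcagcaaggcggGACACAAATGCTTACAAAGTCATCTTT
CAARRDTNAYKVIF, TRAJ30, nucleotide sequence 4: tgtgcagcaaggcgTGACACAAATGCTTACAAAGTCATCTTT
TRAJ30 CDR3 number 2: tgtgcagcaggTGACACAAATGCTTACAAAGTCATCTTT
TRAJ30 CDR3 number 3: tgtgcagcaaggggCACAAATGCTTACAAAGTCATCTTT
TRAJ30 CDR3 number 4: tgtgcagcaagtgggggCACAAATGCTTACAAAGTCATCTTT
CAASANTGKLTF, TRAJ27: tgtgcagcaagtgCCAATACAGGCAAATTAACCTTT
TRAJ27 CDR3 number 3: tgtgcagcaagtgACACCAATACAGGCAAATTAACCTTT
TRAJ27 CDR3 number 4: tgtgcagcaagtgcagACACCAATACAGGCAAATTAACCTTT

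The most frequent CDR3 of TRAJ31, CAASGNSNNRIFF, was carried by 23 cells: 3 among DP, 11 among CD4 SP, 5 among CD25+ TRP, 4 among Foxp3lo TRP and 0 in both Treg populations. In CD4 SP this was 0.595% of cells (0.297 to 1.06). The counts of 0 allow up to 1.64% in CD73- Treg and 0.348% in CD73+ Treg, so these intervals overlapped that of CD4 SP. Its leading nucleotide sequence, in 15 cells, is the whole TRAV14 end joined directly to the whole TRAJ31 segment, with 0 J bases missing and no other base between. The next, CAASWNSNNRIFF, was carried by 18 cells, 0 among DP, 6 among CD4 SP, 5 among CD25+ TRP, 6 among Foxp3lo TRP, 0 among CD73- Treg and 1 among CD73+ Treg. All 18 had the same nucleotide sequence, and 17 had the copy TRAV14N-3. Whether such cells descend from 1 rearrangement was not tested, since the mice were pooled.

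Next for TRAJ31 came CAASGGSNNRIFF and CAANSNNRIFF, found in 5 populations each. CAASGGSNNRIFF was in 15 cells, 0 among DP, 2 among CD4 SP, 4 among CD25+ TRP, 5 among Foxp3lo TRP and 2 in each Treg population. It had 6 nucleotide sequences, and 14 of its cells used TRAV14-1. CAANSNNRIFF was in 11 cells, 3 among DP, 0 among CD4 SP, 2 among CD25+ TRP, 3 among Foxp3lo TRP, 1 among CD73- Treg and 2 among CD73+ Treg, with 5 V copies.

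The most frequent CDR3 of TRAJ30, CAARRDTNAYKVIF, was carried by 17 cells, 0 among DP, 0 among CD4 SP, 4 among CD25+ TRP, 3 among Foxp3lo TRP, 1 among CD73- Treg and 9 among CD73+ Treg. All 17 used TRAV14-1, and 6 different nucleotide sequences encoded it. Its share was 0.851% in CD73+ Treg (0.39 to 1.61), against 0 of 1849 cells in CD4 SP, whose exact interval reaches 0.199%, and these intervals were apart. Of 219 CDR3 with at least 5 cells in the whole series, 16 (7.31%) were apart in this comparison, 5 of them higher in CD73+ Treg. Among the members' 23 it was the only one, so the count was close to the background. The intervals take each cell as a separate draw, though cells of the same clone are not independent. Of the 9 CD73+ Treg cells, 3 carried nucleotide sequence 1 and 3 carried nucleotide sequence 2.

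TRAJ30 CDR3 number 2 was in 15 cells, 0 among DP, 9 among CD4 SP, 3 among CD25+ TRP and 1 in each of Foxp3lo TRP, CD73- Treg and CD73+ Treg. Its share was 0.0946% in CD73+ Treg (0.0024 to 0.526), against 0.487% in CD4 SP (0.223 to 0.922), with intervals that overlapped. All 15 were assigned TRAV14N-1, whose transcript is identical to that of TRAV14D-1, with 5 nucleotide sequences. TRAJ30 CDR3 number 3 was in 11 cells, 1 among DP, 0 among CD4 SP, 2 each among CD25+ TRP, Foxp3lo TRP and CD73- Treg, and 4 among CD73+ Treg. It too was assigned TRAV14N-1 alone, over 6 nucleotide sequences. TRAJ30 CDR3 number 4 was spread over 6 V copies in 10 cells, 4 of them in DP and 0 in both Treg populations.

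For TRAJ27, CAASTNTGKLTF was in 11 cells, 0 among DP, 6 among CD4 SP, 4 among CD25+ TRP, 0 among Foxp3lo TRP, 0 among CD73- Treg and 1 among CD73+ Treg. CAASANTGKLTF was in 10 cells, 0 among DP, 6 among CD4 SP, 3 among CD25+ TRP, 1 among Foxp3lo TRP and 0 in both Treg populations. Both were mostly with the copy TRAV14-2, in 8 of 11 and 9 of 10 cells. TRAJ27 CDR3 number 3 differed from them in its partners. Its 8 cells shared 1 nucleotide sequence, a whole TRAV14 end joined to TRAJ27 less 2 bases, but used 5 V copies and came from 5 populations, with 3 cells in DP. TRAJ27 CDR3 number 4 was in 6 cells, of which 4 were CD25+ TRP.

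**Figure D3:**
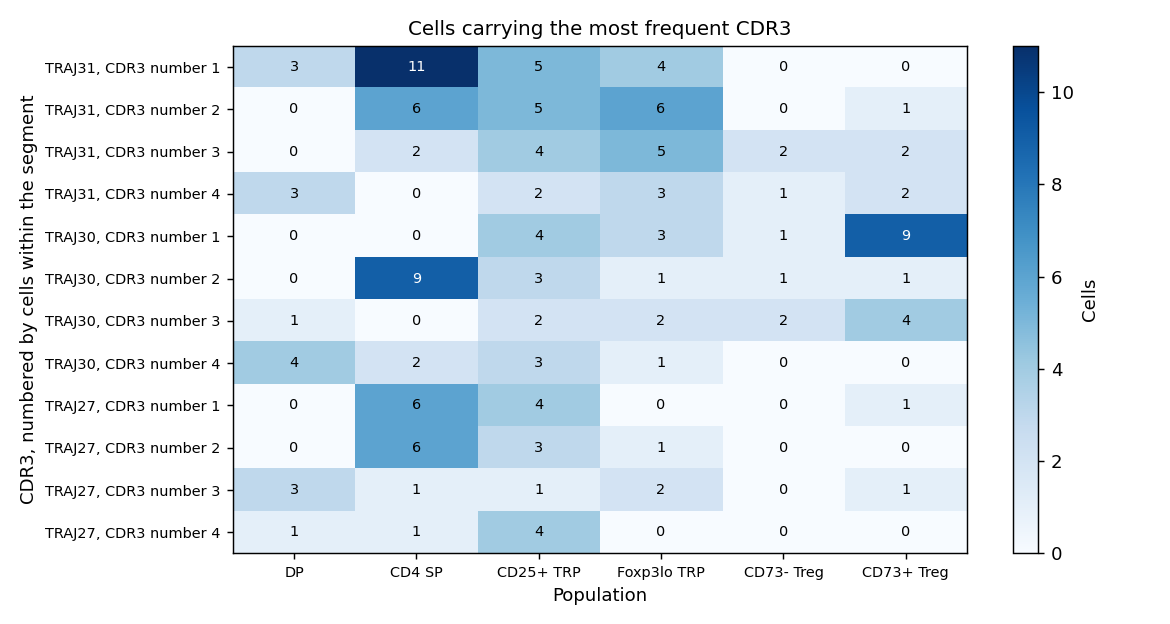
Number of cells carrying each of the 4 most frequent CDR3 of TRAJ31, TRAJ30 and TRAJ27 (rows, numbered by frequency within the segment) in each population (columns). TRAJ30 number 1, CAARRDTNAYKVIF, had 9 cells in CD73+ Treg and 0 in DP and CD4 SP. TRAJ31 number 1, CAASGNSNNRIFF, had 11 in CD4 SP and 0 in both Treg populations, with intervals of its share that overlapped.

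V copies joined to the members differed between neighbouring J segments. The TRAV14 family has 9 annotated copies, whose transcripts were 93.2% to 100% identical. TRAV14D-1 and TRAV14N-1 had 0 mismatches, as did TRAV14D-2 and TRAV14N-2, so the assignment within each of these pairs is uncertain. No cell analysed was assigned TRAV14D-1, so a TRAV14N-1 call may stand for either copy. TRAV14-1 (chr14:53554022-53554558) had 19 mismatches to its nearest copy, and TRAV14-2 (chr14:53640701-53641225) had 9. Members used the family in 97.4% of cells (95.9 to 98.4), and the 6300 cells with other J segments in 97.8%. Among DP, V genes outside the family were used by 13 of 156 members (8.33%) and by 8.74% of cells with other J segments. Among CD4 SP they were used by 0 of 154 members.

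TRAJ31 was joined to TRAV14-1 more often than to any other copy, in 42.4% of its cells (36.4 to 48.6). The share was 16.5% (15.6 to 17.5) in cells with other J segments. The populations had 38.5% among DP (26.7 to 51.4), 39.7% among CD4 SP, 42.9% among CD25+ TRP, 46.9% among Foxp3lo TRP, 50% among CD73- Treg and 48.4% among CD73+ Treg, and their intervals overlapped. At the earliest stage, DP, other J segments had TRAV14-1 in 15.3% of cells (13.2 to 17.6). With each different chain counted once over all populations, it was 35.3% (28.5 to 42.5), against 18.2% of the other chains. TRAV14N-1 was joined to 6.82% of TRAJ31 cells, against 14.2% of the others.

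TRAJ30 was likewise joined to TRAV14-1 in 31.9% of cells (25.8 to 38.6). The share was 15.8% among DP (6 of 38 cells, 6.02 to 31.3), where other chains had 15.3%, then 22.2% among CD4 SP, 35.6% among CD25+ TRP (23.6 to 49.1), 50% among Foxp3lo TRP (14 of 28 cells, 30.6 to 69.4), 25% among CD73- Treg (2 of 8 cells) and 42.1% among CD73+ Treg (26.3 to 59.2). The intervals of Foxp3lo TRP and DP overlapped narrowly. In every population the TRAJ30 interval overlapped that of TRAJ31, and whether the 2 segments differ over the populations was not tested. Per different chain the TRAJ30 values were 48% in Foxp3lo TRP (27.8 to 68.7) and 16.2% in DP (6.19 to 32), which overlapped. The value per chain in CD73+ Treg was 36.4%. Of the 16 CD73+ Treg cells with TRAJ30 and TRAV14-1, 9 carried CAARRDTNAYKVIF. TRAJ30 was joined to TRAV14N-1 in 24.5% of cells (19 to 30.8); the share among CD4 SP was 37.8% (23.8 to 53.5), where TRAJ30 CDR3 number 2 was most frequent. Counted once per different CDR3 of each population, each with the V copy of its first cell, the TRAV14N-1 share was 22.1%. With other J segments it was 15.8%, and these intervals overlapped. Per different chain of each population the shares were 24% and 15.5%, with intervals apart. With chains counted once over all populations they were 22% and 15.5%, and the intervals overlapped. TRAJ30 was rarely joined to TRAV14D-3-DV8, in 7.87% of cells (4.65 to 12.3), against 26.3% of cells with other J segments.

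TRAJ27 was joined to TRAV14-2 in 22.9% of cells (16.9 to 30), against 10.5% of the others. In DP this share was 13% (6 of 46 cells, 4.94 to 26.3), close to the 11.9% of other chains. It was 27.9% in both CD4 SP and CD25+ TRP (15.3 to 43.7 in each), which overlapped the DP interval, and 0 of 4 cells in CD73- Treg. Per different chain the values were 13.3% in DP, 19.4% in CD4 SP and 22.2% in CD25+ TRP. TRAJ28 was found with TRAV14N-1 in 11 of 32 cells and with TRAV14D-3-DV8 in another 11, and with TRAV14-1 in 1. Uneven partners were common over the J cluster. Of 41 segments with at least 30 cells, 56.1% had a TRAV14-1 share apart from that of all other segments, 53.7% a TRAV14-2 share, 48.8% a TRAV14N-1 share and 56.1% a TRAV14D-3-DV8 share. In the order of TRAV14-1 shares TRAJ31 ranked 7 and TRAJ30 ranked 9 of 41, and the highest was TRAJ24 at 52%.

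**Figure D4:**
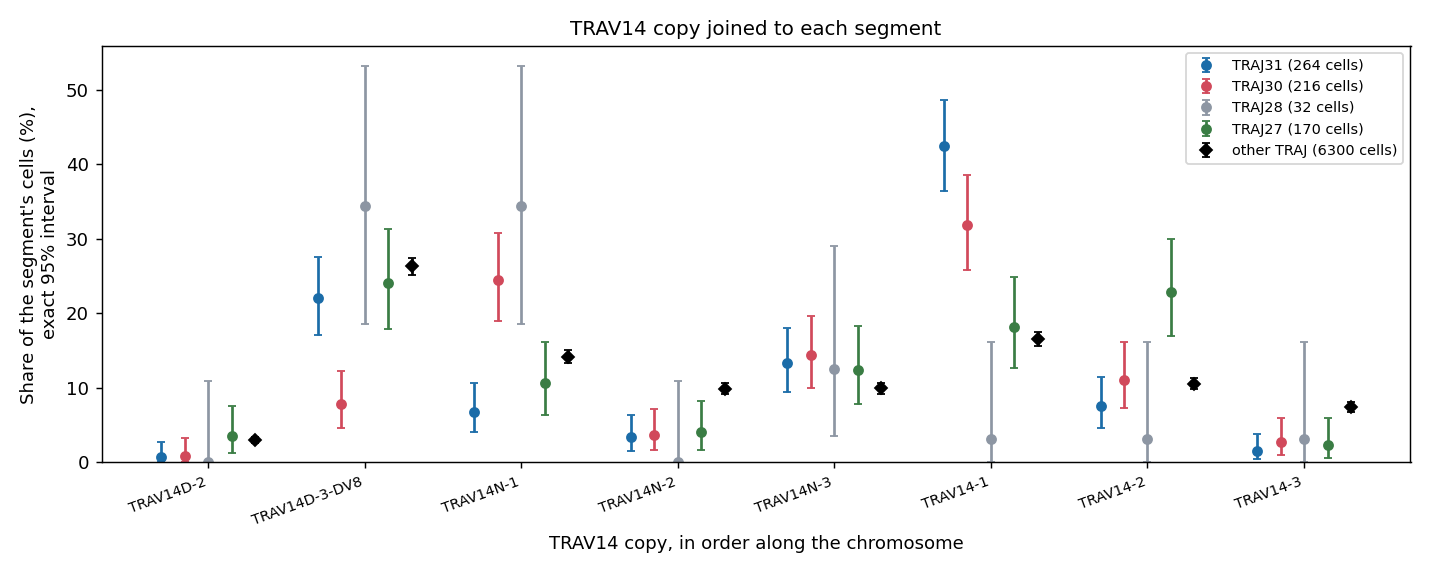
Share of each segment's cells, in percent, joined to each TRAV14 copy that was seen, with exact 95% intervals; copies are in order along the chromosome, and black diamonds give the 6300 cells with other J segments. TRAV14-1 was joined to 42.4% of TRAJ31 cells and 31.9% of TRAJ30 cells, against 16.5% of the others; TRAV14-2 was joined to 22.9% of TRAJ27 cells.

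At the joint, the members had lost a median of 3 germline J bases (quartiles 1 and 5, highest 14) over 527 different chains. The median loss was 4 in TRAJ31, 3 in TRAJ30 and TRAJ27 and 4.5 in TRAJ28. The most common loss was 5 bases in TRAJ31 (33 of 190 chains) and in TRAJ28 (10 of 30), 3 bases in TRAJ30 (50 of 164), and 0 bases in TRAJ27 (31 of 143). In the 509 TRAV14 chains, the median number of bases matching neither germline end was 3, and 42 chains had none. A base that matches by chance counts as germline here, so the loss is a lower limit. Over the populations the median loss of the members lay between 2 and 4 bases, and the median of non-germline bases between 2 and 4.

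**Figure D5:**
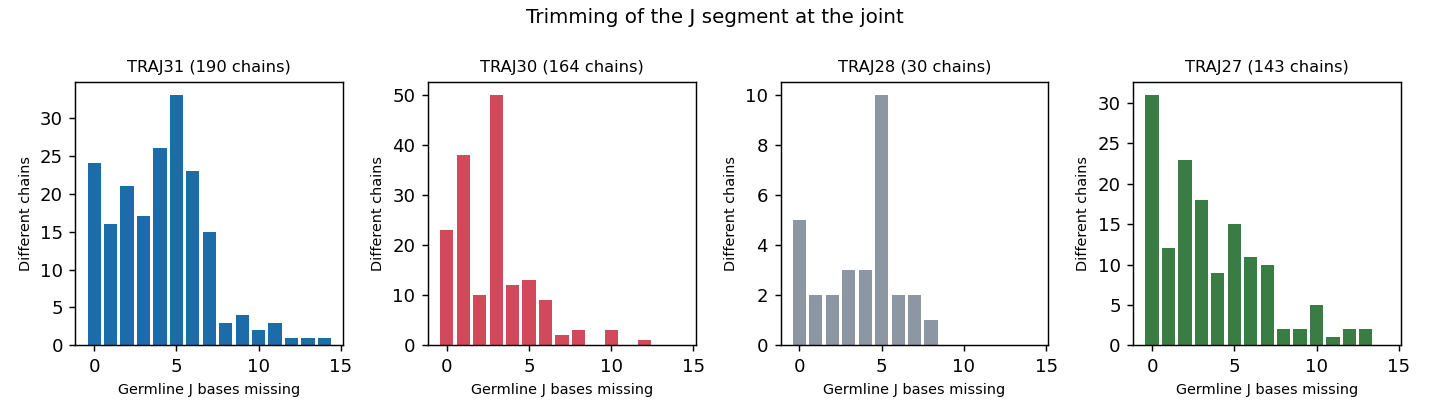
Number of different chains (y axis) by the number of germline J bases missing at the joint (x axis), for each segment. The tallest bar stands at 5 missing bases for TRAJ31 and TRAJ28, at 3 for TRAJ30 and at 0 for TRAJ27.

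CDR3 position 4, counted from the first cysteine, is the serine of CAAS where the TRAV14 end is kept whole. Among TRAV14 chains starting CAA, TRAJ30 carried arginine there in 38.6% of cells (73 of 189, 31.6 to 46), against 12.8% (11.9 to 13.6) of cells with J segments other than the members. Per different CDR3 the shares were 19.3% (11.4 to 29.4) and 13.8%, with intervals that overlapped. Of the 73 cells, 43 used TRAV14-1, over 9 different CDR3, and 17 used TRAV14N-1. By population the arginine share of TRAJ30 was 13.3% among DP (4 of 30 cells, 3.76 to 30.7), 40% among CD4 SP, 29.8% among CD25+ TRP, 53.8% among Foxp3lo TRP, 83.3% among CD73- Treg (5 of 6 cells) and 51.4% among CD73+ Treg (18 of 35 cells, 34 to 68.6). Per different CDR3 it was 8.7% in DP (2 of 23, 1.07 to 28). The highest value was 80% in CD73- Treg (4 of 5, 28.4 to 99.5), narrowly apart from DP but resting on 5 CDR3. Foxp3lo TRP had 42.1% (20.3 to 66.5), CD73+ Treg 27.8% (5 of 18), CD4 SP 34.6% and CD25+ TRP 25%. Each of these intervals overlapped that of DP. Of the 18 CD73+ Treg cells, 9 carried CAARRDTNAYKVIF and 4 carried TRAJ30 CDR3 number 3. With J segments other than the members, the arginine share by cells was 12.4% among DP, 8.69% among CD4 SP and 13% among CD25+ TRP. It was 15.4% among Foxp3lo TRP, 18.6% among CD73- Treg and 16.9% among CD73+ Treg. TRAJ31 had arginine at this position in 17.3% of cells and TRAJ27 in 12.7%. Of 40 segments with at least 30 such cells, 30% had an arginine share apart from that of all others, and TRAJ30 was the member among them.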

How the data were processed

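Gene expression, hashtag and α-enriched TCR libraries were made from the same cells with 10x Genomics 5' chemistry, per the labels' protocols. Cell Ranger 3.1.0 and Seurat 3.1.1 are named, per the submitters' processing notes, and for what step was not given in the sources used here. Cell barcodes and UMIs per cell came from the raw UMI counts that the authors deposited, and productivity, V and J calls, CDR3 and UMIs per chain from the deposited contig table. The normalized matrix was not used. Population and cluster came from the deposited metadata by row order, and the clonotype there equalled that of the contig in 6982 of 6982 cells. The hashtag class Treg was read as CD73- Treg. The gene rows carry no names, so the sort was not checked by markers.

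Contigs in 5392 of 12771 barcodes lay outside the matrix. No doublet caller was run. Shares were computed with Python 3.11.15, pandas 2.3.3 and SciPy 1.17.1, and the code was tested on simulated data. Named CDR3 were those in at least 5 cells, at most 4 per segment, and likeness named 3 segments each; logs added 0.5 cells. Alternatives were counting each different CDR3 or chain once, every productive contig, TRAV14 chains only, at least 3 UMIs, leaving out the 5% of cells with the most UMIs, the most frequent CDR3 or cluster 9. The members and lists were chosen with earlier results of these data known. The counts at CDR3 position 4, at 150 cells and of CD73+ Treg against CD4 SP by CDR3 were chosen after seeing the data.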

Additional observations from a re-analysis of the deposited data

Results flagged for a closer look

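The 4 segments also appeared in α contigs outside the cells analysed. Among nonproductive α contigs of cells in the matrix they made up 26 of 323 (8.05%, exact interval 5.33 to 11.6). They made up 59 of 660 productive contigs in cells with 2 of them (8.94%, 6.87 to 11.4), and 789 of 7987 productive contigs in barcodes outside the matrix (9.88%, 9.23 to 10.6). Each share was above the one that a count of 0 allows, and each overlapped the 9.77% (9.08 to 10.5) of the cells analysed. By population the nonproductive share was 8.54% among DP (7 of 82 contigs), 6.33% among CD4 SP, 11.5% among CD25+ TRP, 2.94% among Foxp3lo TRP, 0 of 5 contigs among CD73- Treg and 8.89% among CD73+ Treg.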

How the results depend on the processing

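Counting each different CDR3 once raised the combined share to 10% in CD4 SP, 12.2% in CD25+ TRP and 11% in CD73+ Treg, and counting each different chain once raised it to 10.7% in CD73+ Treg. For CD4 SP against DP the combined log2 ratio was then -0.25 by CDR3 and -0.37 by chain (9.4% in CD4 SP and 12.2% in DP), with intervals that overlapped. Both settings count fewer units. The other 44 of 48 combined shares stayed within their intervals. Whether intervals were apart was the same in 54 of 56 combined ratios and 221 of 224 ratios of single segments (the other 3 are those of TRAJ31 given above). No difference whose intervals were apart changed sign. Of the ratios whose intervals overlapped, 7 combined and 23 of single segments changed sign under a setting: the combined ratio of CD73+ Treg against CD73- Treg, -0.21 by cells, was 0.18 by CDR3 and 0.06 by chain, and that of TRAJ27, -0.07 by cells, was 1.39 by CDR3. Of 39 shares of a TRAV14 copy, 30 stayed apart from those of the other J segments and 9 overlapped, all when CDR3 or chains were counted once per population. With chains counted once over all populations, 6 of the 13 copies overlapped, among them TRAV14N-1 with TRAJ30 and with TRAJ31. No paired analysis was possible because each population was 1 sample of 1 pool. CD73- Treg (22 members) and TRAJ28 (32 cells) limit the precision of every value they enter.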
